A study of Homo sapiens with 6 samples.

Results

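The genes described here encode the S100 proteins and the annexins of human A549 cells. They were taken from the deposited table of counts by name, as protein-coding genes whose symbol begins with S100 and a further letter or with ANXA and a number, and 36 of 58735 genes in the table met this rule. Of these, 21 were S100 genes and 13 were annexin genes. The remaining 2, S100PBP and ANXA2R, carry the name of a family to which their products do not belong: S100PBP encodes a protein that binds S100P, and ANXA2R encodes a receptor for annexin A2.

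A549 is an established human lung adenocarcinoma cell line. IL17D-overexpressing A549 cells carried the lentiviral vector pCCL with the hPGK promoter and an IRES-GFP cassette, into which the IL17D open reading frame amplified from cDNA of the lung cancer line H82 had been inserted. Control A549 cells carried the empty vector, and both were grown in RPMI1640 medium containing 10% FBS. Total RNA was sequenced in 3 libraries of each group, and the purpose of the comparison was to find genes whose expression differs when A549 cells produce IL-17D, a cytokine of the IL-17 family. The labels and methods do not state if each library was made from its own transduction or culture, so that the p-values measure only the spread between these libraries, which may be technical.

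S100 proteins are small calcium-binding proteins with EF-hand motifs. Most of them form dimers that open a binding surface for other proteins when calcium rises, and several are also released from cells and bind receptors such as AGER (RAGE). Annexins bind negatively charged phospholipids in a calcium-dependent manner and take part in membrane organisation, vesicle traffic and the repair of torn membranes. Both families meet in complexes: a dimer of S100A10 holds a pair of annexin A2 molecules at the plasma membrane and recruits plasminogen, and S100A11 binds annexin A1.

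IL17D had 18 to 34 counts in the control libraries and 26772 to 32155 counts in the IL17D-overexpressing libraries, as the labels state. The libraries held 14319398 to 16521021 counts on genes, and values are given in CPM, counts scaled to the size of the library. A gene at 0 in a library could hold up to 3 counts, or 0.182 to 0.210 CPM, a limit that covers counting error only. Of the epithelial markers, KRT8 and KRT18 were abundant, whereas EPCAM had 9 to 21 counts and KRT19 had 3 to 11 counts per library. The leukocyte marker PTPRC had 0 counts in every library. Genes were compared between the groups with edgeR's quasi-likelihood test, and adjusted p-values are Benjamini-Hochberg values over the 15754 genes that had enough counts for the test.

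The upstream sequence of the annexin genes that passed the test, ANXA1 and ANXA4, is shown here as the genomic context of the results, with GC boxes (GGGCGG, either strand) in capitals. Both stretches come from the RefSeq promoter windows on GRCh38.p14, plus strand, and were limited to bases that lie in no annotated exon. The ANXA1 stretch is chr9:73151615-73151756, which ends 109 bases before the RefSeq start and holds none of the motifs searched. The ANXA4 stretch is chr2:69741884-69741973, which ends 161 bases before the second of its RefSeq starts. The window of the other ANXA4 start lies mostly in exons of AAK1, a gene on the opposite strand, and is not shown.
ANXA1: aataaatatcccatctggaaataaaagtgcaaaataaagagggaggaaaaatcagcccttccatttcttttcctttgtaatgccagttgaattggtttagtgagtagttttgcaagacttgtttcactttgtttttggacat
ANXA4: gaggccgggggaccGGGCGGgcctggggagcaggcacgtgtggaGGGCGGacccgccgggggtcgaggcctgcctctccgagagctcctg

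In the full 250 bases before the start, ANXA1 held a TATA box (TATAAA, either strand) 31 bases before the start and no GC box. The window of ANXA4 shown above held 3 GC boxes, at 236, 206 and 48 bases before the start, and the window of the other start held 5. RefSeq windows were found for 32 of the 36 genes, 46 windows in all. A TATA box stood in 15 of these 46 windows and in 10.7% of all 35116 RefSeq windows, a GC box in 16 of 46 and in 42.6% of all, an AP-1 site (TGANTCA, either strand) in 6 of 46 and in 6.57% of all, and a CRE (TGACGTCA, a palindrome) in 0 of 46 and in 1.65% of all. These are matches of letters only, and binding at them was not measured.

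Few S100 and annexin mRNAs differed between the groups by more than the spread between libraries. Of the 36 genes, 25 had enough counts to be tested: all 13 annexins, 10 S100 genes, S100PBP and ANXA2R. ANXA1 rose by 7.24% and ANXA4 fell by 10.8% at an adjusted p under 0.05, and no S100 gene passed. This count of 1 higher and 1 lower among 25 stands beside 0.673% higher and 0.908% lower over all tested genes, or 1.58% in either direction. Genes with many counts were called more often: among tested genes with a mean of at least 100 CPM, 5.20% were called, and 12 members, ANXA1 and ANXA4 among them, were in this class. The plot of fold changes shows how far the precision differed between members. The 95% interval of the log2 fold change reached 0.05 to 0.10 to either side in the 12 abundant members and 0.11 to 0.99 in the 13 others, of which 0 were called.

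**Figure D1:**
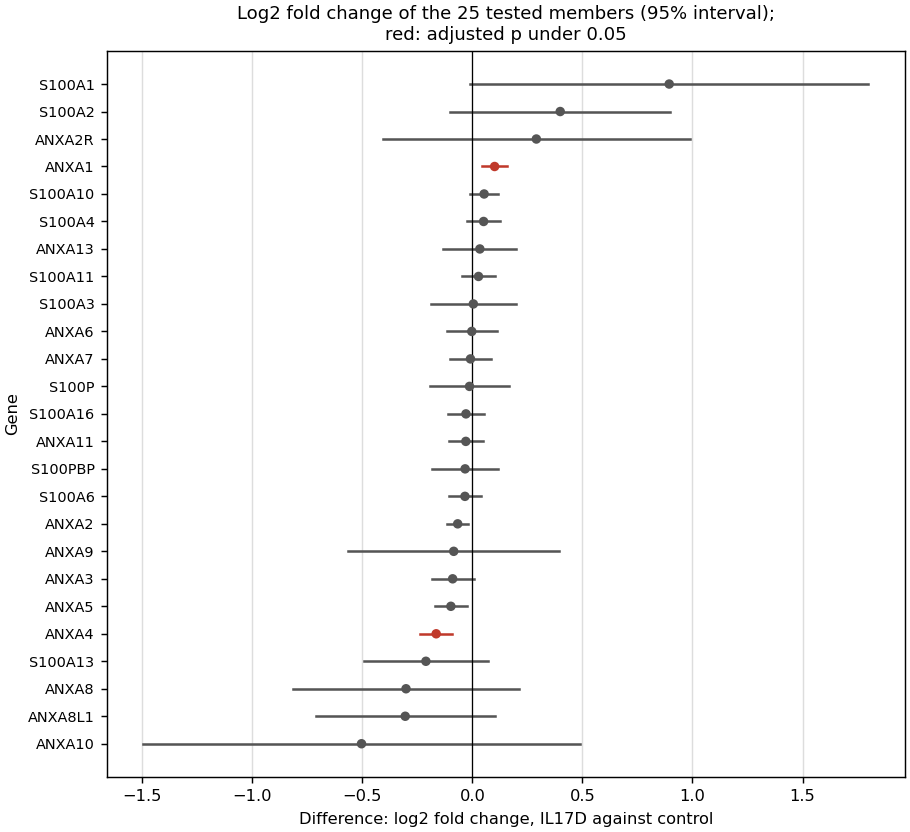
Log2 fold change (x axis, IL17D-overexpressing against control, 3 libraries each) of the 25 tested members (y axis), with points for edgeR's estimate, bars for its 95% interval and red for an adjusted p under 0.05. ANXA1 at 0.10 and ANXA4 at -0.16 are the red points, and the widest intervals belong to the members with few counts, such as S100A1 and ANXA10.

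The families are described next by their counts. In the annexins, 2 of 13 estimates were above 0 and 11 below, with a median log2 fold change of -0.08, beside a median of -0.00044 and 7858 estimates above and 7896 below 0 over all tested genes. In the 10 tested S100 genes, 6 estimates were above 0 and 4 below, with a median of 0.02. Before adjustment, p was under 0.05 in 4 of 13 annexins and 0 of 10 S100 genes, beside 11.6% of all tested genes. The groups did not overlap in 5 annexins and 2 S100 genes, and in 15.8% of all tested genes. The 4 annexins with p under 0.05 and the 5 without overlap all had a mean of at least 100 CPM, the class called more often. The shares of 11.6% and 15.8% cover genes of every level and were not computed for that class. Leaving out 1 library changed these medians. The annexin median was -0.0559 without control replicate 1. The S100 median was -0.0069 without control replicate 2, a change smaller than the spread of that median between libraries of a group. The difference between the families was not tested.

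ANXA4 (ENSG00000196975, chromosome 2, 69644425 to 69827100) encodes annexin A4, an annexin of epithelial cells that binds membranes in a calcium-dependent way. Control libraries 1, 2 and 3 had 272, 274 and 283 CPM, and the IL17D-overexpressing libraries had 246, 248 and 245 CPM. Every IL17D-overexpressing library lay below every control library. The mean fell from 276 ± 6.28 CPM to 246 ± 1.62 CPM (SD, n = 3). The log2 fold change was -0.16 (SE 0.035, edgeR adjusted p = 0.00645), and the 95% interval of the change was -15.1% to -6.24%. Without IL17D replicate 1 the adjusted p was 0.0502, and without IL17D replicate 3 it was 0.0602, with log2 fold changes of -0.16 in both fits. ANXA4 shared no exon bases with another gene, and 3.15% of the 31-base stretches of its transcripts also occur in other genes.

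ANXA1 (ENSG00000135046, chromosome 9, 73151757 to 73170393) encodes annexin A1, known as a mediator of glucocorticoid action that limits inflammation, in part through formyl peptide receptors. It had 1093, 1068 and 1097 CPM in control libraries 1, 2 and 3 and 1170, 1174 and 1149 CPM in the IL17D-overexpressing libraries. The groups did not overlap. The mean rose from 1086 ± 15.8 CPM to 1164 ± 13.3 CPM (SD, n = 3). The log2 fold change was 0.10 (SE 0.027, edgeR adjusted p = 0.0487), which is a rise of 7.24% with a 95% interval of 3.20% to 11.4%. This call stood close to the threshold, and only 5 of 13 alternative fits kept it. Among these, the adjusted p was 0.0104 in limma voom and 0.0166 in DESeq2's Wald test. In edgeR it was 0.0444 with DESeq2 size factors and 0.0301 without control replicate 3. Other edgeR fits did not keep the call. The adjusted p was 0.0581 without control replicate 1, 0.214 without control replicate 2, and 0.218, 0.180 and 0.128 without IL17D replicates 1, 2 and 3. It was 0.0662 when all genes with at least 1 count were tested and 0.0529 when a minimum of 10 counts per library was set, and the estimate was above 0 in all 13 alternative fits.

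**Figure D2:**
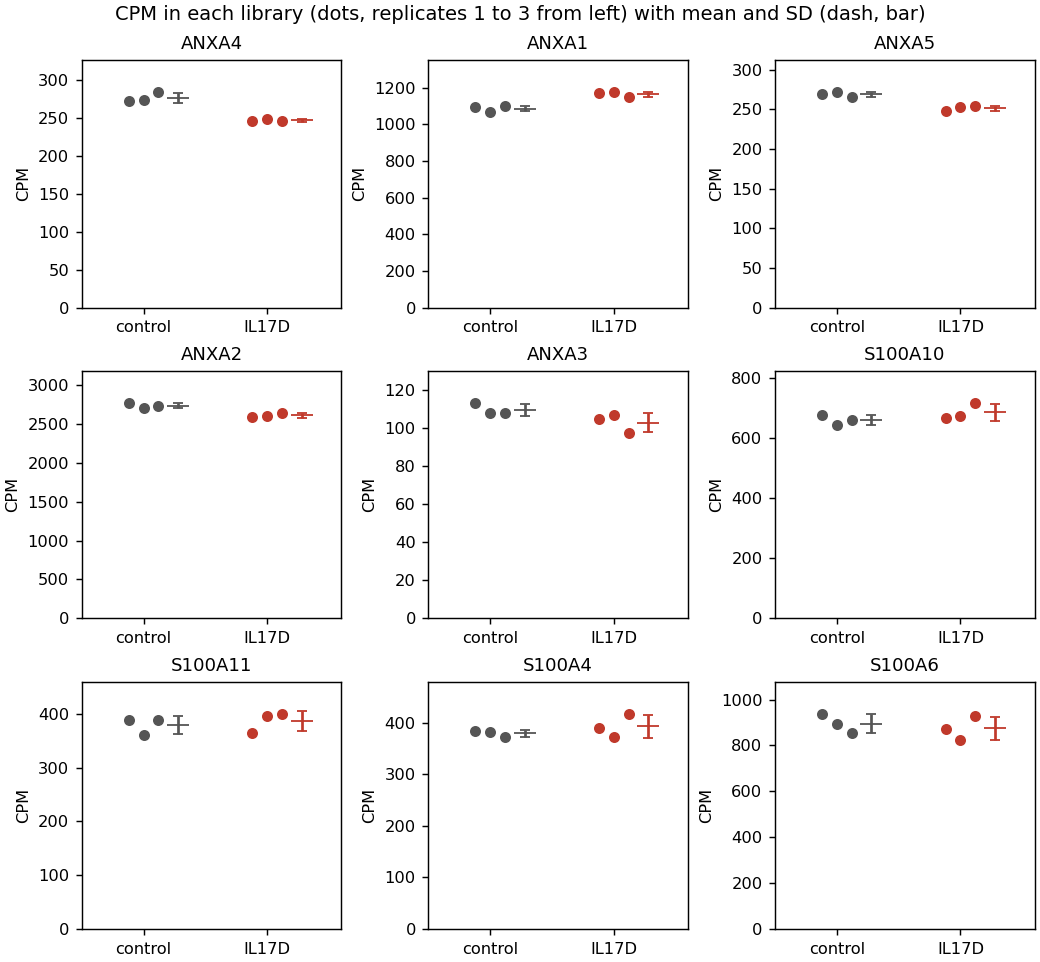
CPM (y axis of each panel, starting at 0) in the 3 control and 3 IL17D-overexpressing libraries, with dots for libraries and dashes with bars for the mean and SD, for 9 members. The groups do not overlap in ANXA4, ANXA1, ANXA5, ANXA2 and ANXA3, where the gap of ANXA3 is smaller than the SD of either group. They overlap in S100A10, S100A11, S100A4 and S100A6. ANXA7, ANXA11 and S100A16, also above 100 CPM, had overlapping groups too and are not drawn.

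ANXA2, ANXA5 and ANXA3 also had no overlap between the groups but did not pass the test. ANXA2 (ENSG00000182718, chromosome 15, 60347134 to 60402883), the annexin with the most counts and the partner of S100A10, had 2773, 2707 and 2730 CPM in control libraries and 2592, 2600 and 2646 CPM in IL17D-overexpressing libraries. Its log2 fold change was -0.07 (SE 0.024, edgeR adjusted p = 0.209), with a 95% interval of -7.71% to -1.24% for the change. limma voom gave ANXA2 an adjusted p of 0.0365 and was the only 1 of 13 alternative fits that called it. DESeq2's Wald test gave 0.241, and the highest value was 0.489, in edgeR without IL17D replicate 1. ANXA5 (ENSG00000164111, chromosome 4), whose product binds phosphatidylserine on dying cells and is used to stain them, had 270, 272 and 265 CPM against 247, 252 and 254 CPM. Its log2 fold change was -0.10 (SE 0.035, edgeR adjusted p = 0.206). ANXA3 (ENSG00000138772, chromosome 4) had 113, 108 and 108 CPM in control and 105, 107 and 97.1 CPM in IL17D-overexpressing libraries. The gap between its groups was smaller than the SD of either group (3.11 and 5.01 CPM), and its log2 fold change was -0.09 (SE 0.047, edgeR adjusted p = 0.476).

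Summed over the family, annexin genes took 0.50, 0.492 and 0.494% of all counts in control libraries and 0.484, 0.481 and 0.486% in IL17D-overexpressing libraries. These shares did not overlap, and ANXA2 alone made up 55.0 to 55.5% of the annexin counts in control and 53.5 to 54.3% in IL17D-overexpressing libraries. The summed level of the 5 epithelial markers was 11120 to 11540 CPM in control and 10800 to 11040 CPM in IL17D-overexpressing libraries. KRT8 and KRT18 made up nearly all of it. The groups did not overlap in KRT8 (log2 fold change -0.06, edgeR adjusted p = 0.265) but overlapped in KRT18, EPCAM and KRT19. Of the 4 markers tested, only CDH1, which encodes E-cadherin, was called lower (log2 fold change -0.28, edgeR adjusted p = 0.0306). The part of these markers in the annexin values was not tested. In such bulk samples fewer cells with a given mRNA and less of it per cell cannot be told apart.

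The S100 genes with the most counts did not pass the test in either direction. S100A6 (calcyclin), which binds the ubiquitin ligase component CACYBP, had 938, 891 and 856 CPM in control and 870, 825 and 928 CPM in IL17D-overexpressing libraries. Its groups overlapped, with a log2 fold change of -0.03 and a 95% interval of -0.10 to 0.04, and the estimate turned to 0.0026 when control replicate 1 was left out and to 0.0067 when IL17D replicate 2 was. S100A10 (p11), the partner of annexin A2, had 677, 645 and 659 CPM against 665, 674 and 716 CPM, with a log2 fold change of 0.05 and an interval of -0.01 to 0.12. Here the IL17D-overexpressing replicate 3 was the highest of all 6 libraries. S100A11, the partner of annexin A1, had 389, 361 and 389 CPM against 365, 396 and 400 CPM, with a log2 fold change of 0.03 (interval -0.05 to 0.10). The lowest of its libraries was a control and the next an IL17D-overexpressing library, and the estimate was -0.0069 without control replicate 2.

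S100A4, known for binding non-muscle myosin and for its link to metastasis, had 384, 383 and 371 CPM in control and 389, 373 and 417 CPM in IL17D-overexpressing libraries, with a log2 fold change of 0.05 (interval -0.02 to 0.12). S100A16, which is expressed in many tissues, had 161, 161 and 155 CPM against 153, 159 and 156 CPM, with a log2 fold change of -0.03 (interval -0.11 to 0.05). In these 5 abundant S100 genes the edgeR adjusted p lay between 0.568 for S100A10 and 0.862 for S100A16. The upper end of the interval, as a change from control, was above the 7.24% estimated for ANXA1 in S100A10 (8.52%), S100A11 (7.399%) and S100A4, and below it in S100A16 (3.68%) and S100A6 (2.60%). Without IL17D replicate 3 the log2 fold change was 0.0074 for S100A4 and 0.0218 for S100A10. S100 genes as a whole took 0.247 to 0.261% of all counts in control and 0.247 to 0.267% in IL17D-overexpressing libraries, and these ranges overlap.

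The balance within the annexin and S100 pairs was described by the ratio of their counts. The ratio of ANXA2 to S100A10 counts was 4.10, 4.20 and 4.14 in control libraries and 3.90, 3.86 and 3.69 in IL17D-overexpressing libraries. All 3 IL17D-overexpressing libraries lay below the control libraries, with means of 4.14 ± 0.052 and 3.81 ± 0.107 (SD, n = 3), a difference of -7.96%. An exact two-sided permutation test gave p = 0.1, which is the smallest value that 3 libraries against 3 can give, and 0.2 after Benjamini-Hochberg adjustment over the 2 ratios computed. The ratio of ANXA1 to S100A11 counts was 2.81, 2.96 and 2.82 against 3.21, 2.97 and 2.87. IL17D-overexpressing replicate 3 lay within the range of the control libraries, and the means of 2.86 ± 0.083 and 3.02 ± 0.172 (SD, n = 3) gave an exact permutation p of 0.2, also 0.2 after adjustment. Counts depend on gene length, so that these ratios are not molar ratios.

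The levels of the members spanned a wide range. Per kilobase of merged exon, S100A6 was the highest at 911 CPM per kilobase (mean of 6 libraries), followed by S100A11 at 564, S100A10 at 436, S100A4 at 377, ANXA2 at 303 and ANXA1 at 247. S100A6 was 30th and ANXA1 115th by this measure among the 15754 tested genes. S100A16 at 92.6 and ANXA5 at 85.7 came next, and then ANXA7 at 37.9, ANXA11 at 29.5, ANXA4 at 23.7, ANXA3 at 20.7, S100P at 19.8, S100A3 at 18.5, ANXA6 at 14.1 and ANXA13 at 7.80. The order among the highest depends on which exons are counted into the length. With only the exons of the basic annotation, a choice made after the data were seen, the length of ANXA2 shrank from 8824 to 1886 bases, and its level became the highest at 1418 CPM per kilobase, ahead of S100A6 at 1044. The same 8 genes were the highest under both lengths.

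**Figure D3:**
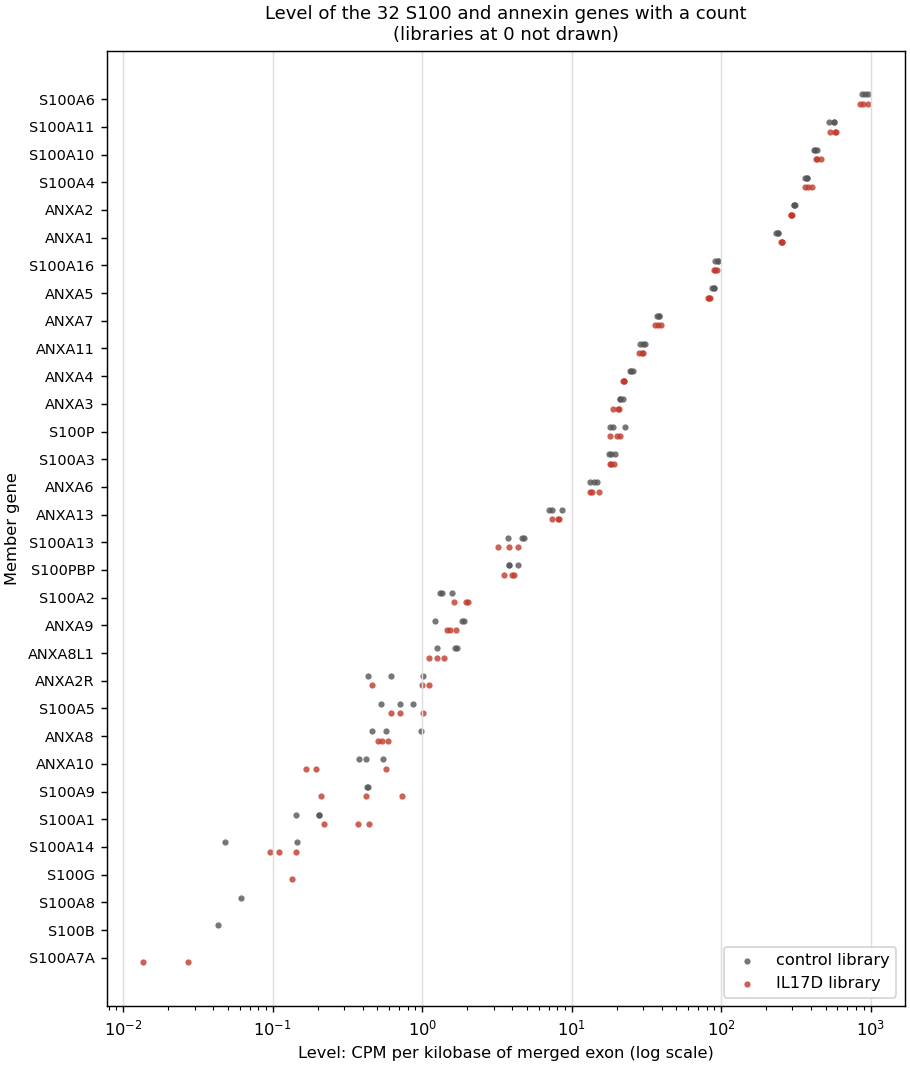
Level in CPM per kilobase of merged exon (x axis, log scale) of the 32 members with at least 1 count (y axis, highest at the top), with 1 dot per library, grey for control and red for IL17D-overexpressing. The dots of both groups lie together for most genes, from S100A6 at 911 down to genes with 1 or a few counts.

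The other tested annexins were ANXA6, ANXA7, ANXA8, ANXA8L1, ANXA9, ANXA10, ANXA11 and ANXA13. ANXA11, which links RNA granules to lysosomes, had means of 254 ± 8.56 and 248 ± 8.40 CPM (SD, n = 3) in control and IL17D-overexpressing cells, and ANXA7 had 109 ± 2.21 and 108 ± 5.04 CPM. Both pairs of groups overlapped. ANXA8L1 and ANXA8 are near-identical copies on chromosome 10, and 86.5% of the 31-base stretches of ANXA8L1 transcripts also occur in ANXA8, so that reads may be split between them. ANXA8L1 had 4.92, 3.59 and 4.73 CPM in control and 4.01, 3.16 and 3.57 CPM in IL17D-overexpressing libraries (log2 fold change -0.31, edgeR adjusted p = 0.625), with overlap. With the counts of both copies added up, the log2 fold change was -0.30 (SE 0.158, edgeR adjusted p = 0.472). Apart from ANXA8L1, these annexins together with S100A3 and S100P (which binds ezrin) made up 9 members whose log2 fold changes lay between -0.50 (ANXA10) and 0.03 (ANXA13). Their edgeR adjusted p-values lay between 0.720 and 0.996, and the groups overlapped in 9 of 9.

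Among the S100 genes with few counts, S100A1 and S100A2 had no overlap between the groups. S100A1, best known from heart muscle, had 10, 9 and 7 counts in control and 22, 11 and 16 counts in IL17D-overexpressing libraries. The lowest IL17D-overexpressing library was only 1 count above the highest control, and the log2 fold change of 0.89 had an interval of -0.01 to 1.80 (edgeR adjusted p = 0.442). S100A2, an S100 protein of the nucleus of epithelial cells, had 40, 30 and 34 counts against 52, 42 and 44 counts, with a log2 fold change of 0.40 (interval -0.10 to 0.90, edgeR adjusted p = 0.587). S100A13, which takes part in the release of FGF1, had 173, 149 and 133 counts against 138, 118 and 139 counts. Its groups overlapped, with a log2 fold change of -0.21 (interval -0.49 to 0.07, edgeR adjusted p = 0.626), which was -0.106 without IL17D replicate 2 and -0.321 without IL17D replicate 3. S100A1 lies on the opposite strand to S100A13. Of the exon bases of S100A13, 33.5% overlap AL162258.1, on the same strand, or S100A1. Of those of S100A1, 18.3% overlap AL162258.2, S100A13 or AL162258.1, all on the opposite strand. The sources used here do not say whether strand was used in counting, and strand would not separate S100A13 from AL162258.1. Reads in these overlaps therefore cannot be assigned with certainty. With the counts of S100A1 and S100A13 added up, without the AL162258 loci, the log2 fold change was -0.12 (edgeR adjusted p = 0.81).

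Of the S100 genes, 7 had counts but too few for the test, and 4 had no count in any library. S100A9, which pairs with S100A8 as calprotectin in neutrophils and monocytes, had 4, 0 and 4 counts in control and 4, 2 and 6 counts in IL17D-overexpressing libraries. S100A8 had 1 count, in control replicate 1. These values are at or near the limit that a count of 0 allows. The summed level of the 6 myeloid markers was 2.30 to 3.25 CPM in control and 3.29 to 4.01 CPM in IL17D-overexpressing libraries, with PTPRC at 0. ITGAM made up most of this sum (log2 fold change 0.49, edgeR adjusted p = 0.516). CD14 overlapped between the groups, and the mean of CD68 was 0.167 CPM in control and 0.044 CPM in IL17D-overexpressing libraries. Of the 2 myeloid markers tested, 0 were called, and the part of these markers in the S100A9 counts was not tested. S100A5 had 6 to 11 counts in control and 8 to 13 in IL17D-overexpressing libraries, and S100A14, S100A7A, S100G and S100B had at most 3 counts in a library. S100A7, S100A7L2, S100A12 and S100Z had no count. S100A7 (psoriasin) and S100A12 are known from keratinocytes and from neutrophils, and the 6 keratinocyte markers summed to 2.59 to 3.36 CPM in control and 2.74 to 3.77 CPM in IL17D-overexpressing libraries. FLG, with 24 to 54 counts per library, made up most of this sum. TP63 had 14, 4 and 10 counts in control and 3, 4 and 4 counts in IL17D-overexpressing libraries, too few for the test. KRT5, KRT14 and IVL had at most 3 counts in a library, and LOR had no count.

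On chromosome 1, 17 of the 21 S100 genes lie in the epidermal differentiation region, between 151982915 and 153632039 of GRCh38. The level changed from gene to gene along it. S100A10 and S100A11 at one end and S100A6, S100A4 and S100A16 at the other were abundant. Between S100A11 and S100A6 lie S100A9, S100A12, S100A8, S100A7A, S100A7L2 and S100A7, which had at most 6 counts in a library, and S100A5, next to S100A6, had at most 13. The 9 tested genes of the region gave log2 fold changes from -0.21 (S100A13) to 0.89 (S100A1), and 0 of them passed. The 4 S100 genes elsewhere were S100P on chromosome 4, S100Z on chromosome 5, S100B on chromosome 21 and S100G on chromosome X.

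**Figure D4:**
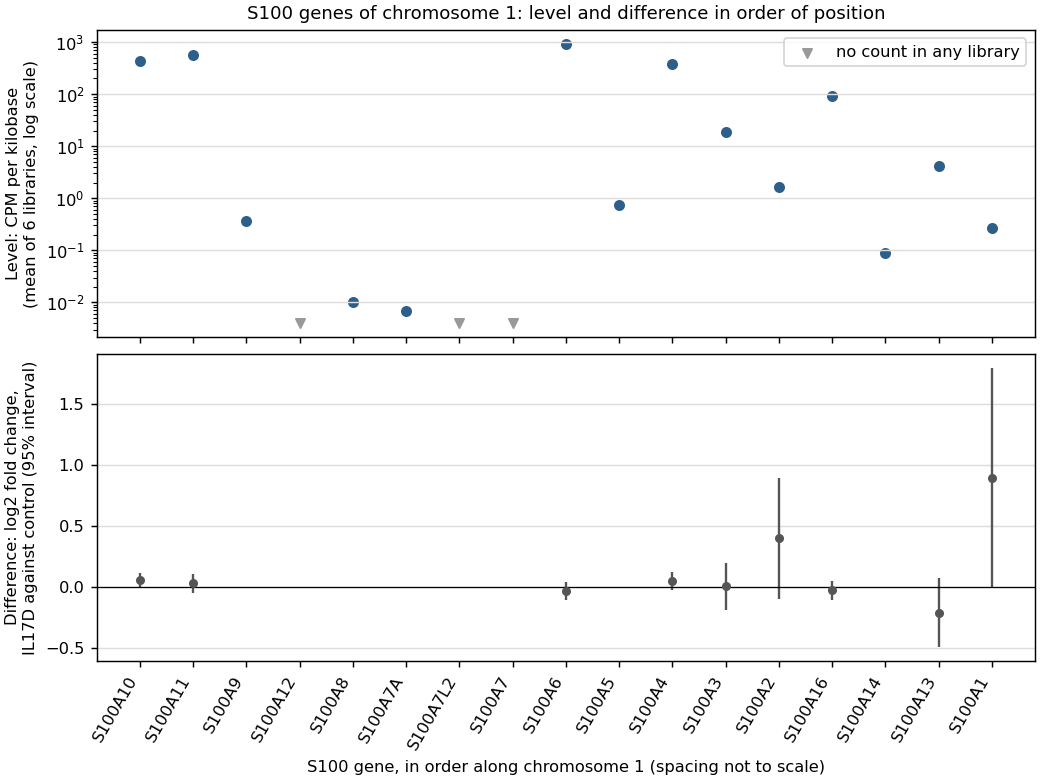
The 17 S100 genes of chromosome 1 in order of position (x axis, spacing not to scale), with the level in CPM per kilobase (upper panel, log scale, mean of 6 libraries, triangles for genes without a count) and the log2 fold change with its 95% interval (lower panel). The level alternates from 911 for S100A6 to 0 for S100A7, and the intervals of the fold change include 0 in all 9 tested genes.

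The 2 members that belong to neither family were not called. S100PBP had 35.0, 40.0 and 34.9 CPM in control and 36.8, 37.6 and 32.7 CPM in IL17D-overexpressing libraries, with overlap, and its log2 fold change of -0.03 (edgeR adjusted p = 0.924) was 0.03 without control replicate 2 or without IL17D replicate 3. ANXA2R had 24, 15 and 39 counts against 18, 39 and 38 counts, and its estimate of 0.29 (edgeR adjusted p = 0.828) had a spread between libraries of the same group that exceeded it.

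The partners of the 2 families were described from a list of 48 receptors, ligands, binding proteins and membrane repair proteins, of which 38 were tested. TGM2 rose and PLSCR1 fell, and the median log2 fold change of the 38 was -0.01. This count of 2 stands beside 1.58% called over all tested genes and 5.20% over those with a mean of at least 100 CPM. TGM2 encodes transglutaminase 2, an enzyme that cross-links proteins, with S100 proteins and annexin A1 among its known substrates. It had 471, 483 and 466 CPM in control and 542, 543 and 545 CPM in IL17D-overexpressing libraries. The groups stood well apart, with a log2 fold change of 0.20 (SE 0.031, edgeR adjusted p = 8.8e-05). PLSCR1 encodes a phospholipid scramblase, and its level was 37.1, 39.1 and 42.0 CPM in control and 31.2, 31.99 and 33.7 CPM in IL17D-overexpressing libraries. It did not overlap between the groups and had a log2 fold change of -0.29 (SE 0.071, edgeR adjusted p = 0.0243).

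**Figure D5:**
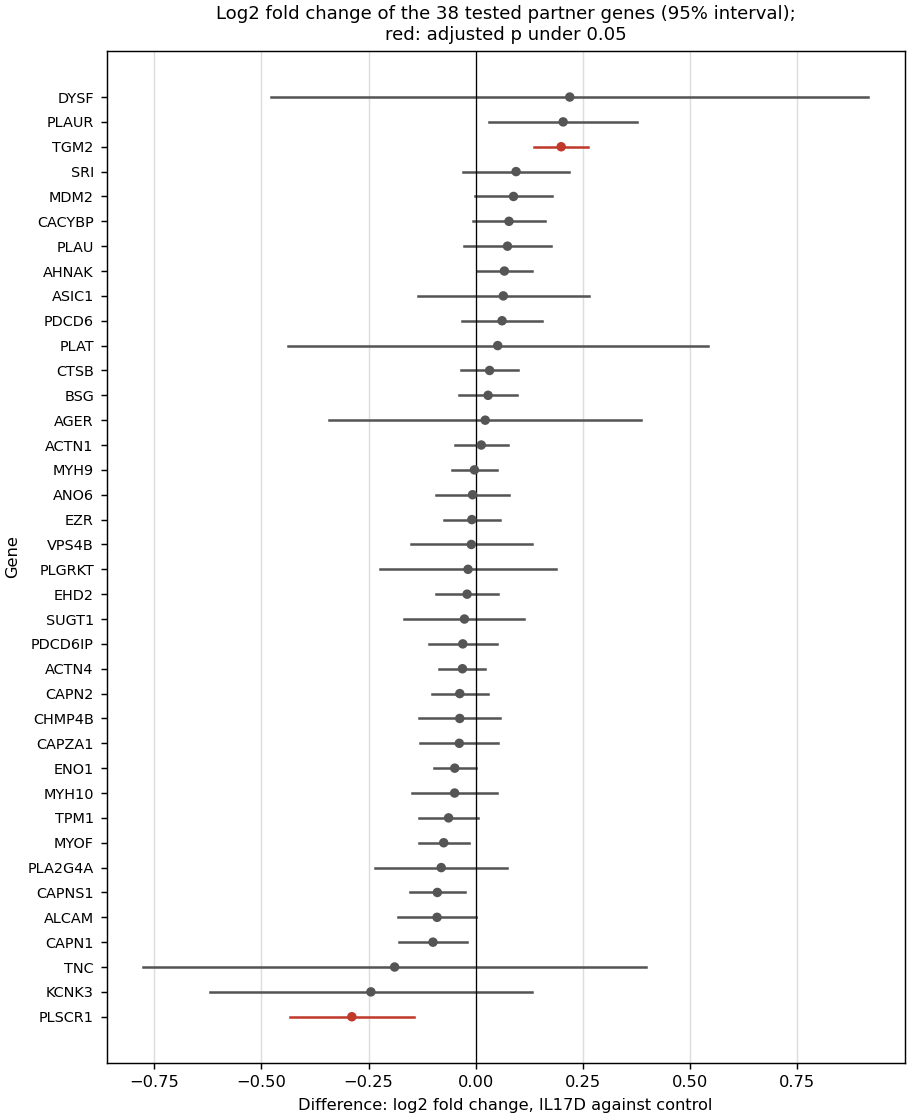
Log2 fold change (x axis, IL17D-overexpressing against control, 3 libraries each) of the 38 tested partner genes (y axis), with points for edgeR's estimate, bars for its 95% interval and red for an adjusted p under 0.05. TGM2 at 0.20 lies to the right of 0, and PLSCR1 at -0.29 lies to the left.

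Of the calls of the partner list, that of PLSCR1 was lost in most fits with 1 library left out. Over all tested genes, 249 were called with all libraries and 145 to 267 in these fits. TGM2 was called whichever library was left out. PLSCR1 was called without control replicate 1 but not without control replicate 2, control replicate 3 or any 1 of the IL17D-overexpressing libraries, so that 1 or 2 genes of the list were called in these fits, AHNAK being the other one without control replicate 3. The other 36 tested partners had log2 fold changes of -0.24 to 0.22 and adjusted p-values of at least 0.197. An unadjusted edgeR p under 0.05 was found in 5 of them, and in 7 of all 38 tested partners, beside 11.6% of all tested genes. The groups did not overlap in 12 of the 38, beside 15.8% of all tested genes. These shares cover genes of every level. AGER, the receptor that several released S100 proteins bind, had 78, 64 and 72 counts in control and 84, 71 and 64 counts in IL17D-overexpressing libraries, with overlap. The receptors FPR2, FPR3 and TLR4 and the plasminogen gene PLG were listed with 0 counts in every library, and the formyl peptide receptor FPR1, through which annexin A1 can act, had 1 count in all. The 10 partners not tested had at most 14 counts in a library.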

How the data were processed

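RNA-seq counts of 3 control and 3 IL17D-overexpressing A549 libraries were analysed. The authors deposited counts of reads per gene, without normalization. The submitters' processing notes name Bowtie2 and hg38, and the counting tool and its strand setting are not given in the sources used here. The paper and the labels name different Illumina sequencers. Gene coordinates and lengths of 36 of the 36 members equal those of GENCODE release 29.

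Counts were tested with edgeR 4.0.16 in R 4.3.3 (filterByExpr, TMM, glmQLFit, glmQLFTest, two-sided, Benjamini-Hochberg over 15754 genes), and CPM were computed after TMM scaling. limma 3.58.1, DESeq2 1.42.0, other filters, a replicate block and leaving out each library were alternatives, and the steps were tested on simulated data. Figures were drawn with matplotlib 3.10.9. Intervals assume the fitted spread and cover these libraries only.

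The members and gene lists were chosen with earlier results of these data known. Named with values were members at an adjusted p under 0.05, the 8 highest per kilobase, the pairs ANXA2 with S100A10, ANXA1 with S100A11 and S100A8 with S100A9, the 5 other members with the smallest p, S100PBP and ANXA2R. TMM factors were 0.997 to 1.00. Libraries of a group differed by more than counting error (chi-square per degree of freedom 2.16 to 3.18). The partner list of 48 genes excludes 1 further gene that is not reported here.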

Additional observations from a re-analysis of the deposited data

How the results depend on the processing

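The direction was kept by ANXA1, ANXA2, ANXA3, ANXA4 and ANXA5 in all 13 alternatives. The number of members called higher was 0 with all genes of at least 1 count (ANXA1 log2 fold change 0.0986), with at least 10 counts in every library (0.101) and with the replicate block (0.101, adjusted p = 0.0903), and it was 0 to 1 when 1 library was left out, where ANXA1 lay between 0.089 and 0.112. The number called lower was 2 with limma voom, where ANXA2 was at -0.0678, and 0 to 1 when 1 library was left out, where ANXA4 lay between -0.175 and -0.145. With 1 library left out, 1 to 2 partner genes were called, the annexin median was -0.0747 to -0.0559 and the S100 median -0.00687 to 0.0542. The estimates of S100A6 (-0.0771 to 0.00666), S100A11 (-0.00687 to 0.0691) and S100PBP (-0.0719 to 0.0334) changed sign in such fits. Over all genes, 249 were called, against 145 without IL17D replicate 3, 155 without IL17D replicate 1, 174 without control replicate 2 and 272 with the replicate block. Libraries with the same number did not deviate together over all tested genes, each weighted alike (correlations of -0.0225 to 0.0185). A batch shared by libraries of the same number was not tested in another way. The block changed no call of a member or partner other than that of ANXA1. Adding up the counts of look-alike loci, chosen after the data were seen, changed no call of a member. The intervals of members below 100 CPM reached 0.11 to 0.99 to either side, more than the 0.10 estimated for ANXA1.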

Other observations

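The processed pseudogene ANXA2P2 on chromosome 9 resembles ANXA2 in sequence. It had 190, 187 and 185 CPM in control and 172, 180 and 175 CPM in IL17D-overexpressing libraries, and its groups did not overlap. Its log2 fold change was -0.09 (edgeR adjusted p = 0.325), beside -0.07 for ANXA2. Of the 31-base stretches of ANXA2 transcripts, 7.55% also occur in ANXA2P2. With the counts of ANXA2 and its 3 pseudogenes added up, the mean was 2924 ± 34.9 CPM in control and 2788 ± 29.5 CPM in IL17D-overexpressing cells (SD, n = 3), with a log2 fold change of -0.07 (SE 0.024, edgeR adjusted p = 0.185). The pseudogenes ANXA2P1, with at most 5 counts in a library, and ANXA2P3, with no count, added little to this sum.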
